A study of Mus musculus with 16 samples.

Results

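The CCN family of secreted growth regulators was followed in the mouse heart through 5 genes, Ctgf (Ccn2), Cyr61 (Ccn1), Nov (Ccn3), Wisp1 (Ccn4) and Wisp2 (Ccn5). They were taken by symbol from the gene annotation, with earlier results of these data known, and make up 5 of the 22372 protein-coding genes measured. The tissue was ventricle from 16 C57BL/6J mice, 10 to 12 weeks old when the experiment began, and its messenger RNA was sequenced. Transverse aortic constriction (TAC) ties a suture around the aortic arch and loads the left ventricle with pressure, and the sham operation leaves the suture out. THZ1 is a covalent inhibitor of Cdk7 that also reaches Cdk12 and Cdk13, kinases of the tail of RNA polymerase II. Mice of either surgery were injected intraperitoneally with vehicle or with THZ1, so that TAC-Veh, TAC-THZ1, Sham-Veh and Sham-THZ1 held 4 mice each. Per the labels THZ1 was given at 10 mg/kg per dose, with 2 doses per day, between postoperative days 1 and 60. The study's methods name male animals and a vehicle of dimethyl sulfoxide and dextrose, and no group carried a transgene or deletion. Per the study's methods RNA came from a piece of ventricle, so every level is a sum over all cell types in it. Fewer cells of a type and less RNA per cell cannot be told apart.

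CCN proteins are matricellular: they are secreted, settle in the extracellular matrix and signal through integrins and heparan sulfate proteoglycans instead of through a dedicated receptor. They are built from modules that resemble an insulin-like growth factor binding protein, a von Willebrand factor type C repeat, a thrombospondin repeat and a C-terminal cystine knot, and through these they hold growth factors such as TGF-beta, BMPs and VEGF. Ctgf and Cyr61 are textbook targets of the Hippo pathway effectors YAP and TAZ, which act through TEAD transcription factors, and Ctgf is also a classical target of TGF-beta in scar-forming fibroblasts. Wisp1 and Wisp2 were named as Wnt1-inducible genes, and Nov was found as a gene overexpressed in nephroblastoma.

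The modular build could be read from the coding exons of the annotation (GENCODE on NCBIM37, the mm9 build). Ctgf encoded 348 codons, Cyr61 379, Nov 354 and Wisp1 367, each in 5 coding exons, of which the last was 294 to 300.0 bp long. Wisp2 was the exception with 251 codons in 4 coding exons and none that corresponded to that last exon, which in the other members encodes the cystine knot. Ctgf lies on chromosome 10 (24315248 to 24318489, plus strand), Cyr61 on chromosome 3 (145309935 to 145312949, minus strand) and Wisp2 on chromosome 2 (163646597 to 163658882, plus strand). Nov and Wisp1 lie on the plus strand of chromosome 15, at 54577257 to 54585594 and 66722882 to 66754763. A noncoding RNA gene, Gm15270, overlaps Ctgf on the other strand, and per the study's methods reads were counted by strand.

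**Figure D1:**
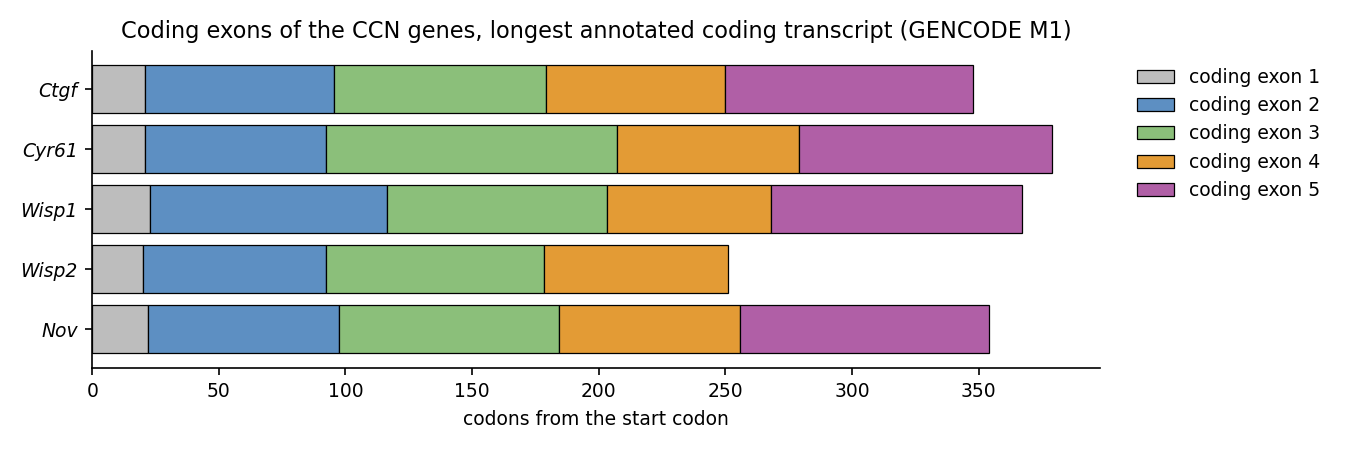
Codons from the start codon (horizontal axis) of each CCN gene, with coding exons 1 to 5 as coloured segments drawn to scale. Ctgf, Cyr61, Wisp1 and Nov have 5 segments and Wisp2 has 4, ending at codon 251.

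Of the members, 1 had an entry in the promoter table used here (RefSeq, GRCm38.p6 assembly). It was Cyr61, whose promoter is shown because TEAD factors act on this gene. The 250 bases before the start site matched NCBIM37 exactly once, at chr3:145312950-145313199 on the minus strand. The capitals mark CATTCC, which is the TEAD letters GGAATG read on the other strand, and the letters TATAAA.
Cyr61 promoter: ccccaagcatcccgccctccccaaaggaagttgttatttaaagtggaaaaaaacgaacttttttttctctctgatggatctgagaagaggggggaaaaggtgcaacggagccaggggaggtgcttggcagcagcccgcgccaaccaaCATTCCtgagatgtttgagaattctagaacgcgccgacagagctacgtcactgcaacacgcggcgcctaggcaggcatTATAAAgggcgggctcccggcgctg
The TEAD letters began 103 bases before the start and the TATA letters 25 bases before it. Searched on both strands, the TEAD letters occurred in 12.6% of 32536 promoter windows of the same length, and TATAAA in 12.3%. The window held no SMAD letters (CAGAC, present in 42.2% of windows), no AP-1 letters (TGANTCA, 6.73%) and no CArG box, the element bound by SRF (1.48%). None of the motifs found overlapped another. Letters in a window are a description and not a bound site.

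Sequencing gave 21.4 to 35.8 M reads in protein-coding genes per library, with a median of 28.2 M. Levels are normalized counts, which are reads divided by a size factor of the library (0.749 to 1.40). Reads behind the members ranged from 1204 to 31281 per library for Ctgf, 1005 to 5749 for Cyr61, 97 to 4629 for Wisp2, 16 to 703 for Wisp1 and 68 to 128 for Nov. Wisp1 and Nov thus rested on the fewest reads. In the limma test given below, the SE of a log2 fold change was nonetheless smallest for Nov (0.18) and largest for Wisp1 (0.47). The ventricle label was checked by marker genes. Cardiomyocyte markers summed to between 810919 and 1616279 normalized counts per library, while the atrial genes Myl7, Sln and Bmp10 had at most 9, 4 and 1 reads. The 2 other genes of the atrial list were present, Myl4 with up to 69 reads and Dkk3 with up to 1452, and Dkk3 rose with TAC (log2 fold change 3.68, adjusted p 2.06e-07) and fell with THZ1 in TAC (-1.87, adjusted p 3.11e-04). As normalized counts, the summed atrial markers ranged from 86.2 to 105 for Sham-Veh, from 532 to 1400.3 for TAC-Veh and from 169 to 346 for TAC-THZ1. The 4 TAC-Veh libraries were not alike. Replicates 1 and 2 stood apart from replicates 3 and 4 in Ctgf, Cyr61 and Wisp1, and replicate 2 alone did so in Wisp2 and Nov. The members' fold changes with constriction and with THZ1 in TAC are therefore also given without replicates 1 and 2, an alternative chosen after the data had been seen. That fit keeps TAC-Veh replicates 3 and 4 alone, 2 mice whose levels lay close together. It takes the wide TAC-Veh spread out of the error, so an adjusted p can fall while the fold change shrinks. Resting on 2 mice, these adjusted p values add no strength to a call.

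Per kb of exon, Ctgf and Cyr61 carried most of the family in every group. In Sham-Veh, Ctgf had 734 ± 129 normalized counts per kb (SD, n = 4), Cyr61 609 ± 36.8, Wisp2 108 ± 31.9, Nov 35.4 ± 2.77 and Wisp1 6.16 ± 1.75. Ctgf and Cyr61 were thus at comparable levels in the resting heart, and the 3 others were well below them. In TAC-Veh, Ctgf was at 6807 ± 4456, Cyr61 at 1833 ± 983 and Wisp2 at 1116 ± 419 per kb. Wisp1 followed at 36.3 ± 37.3 and Nov at 28.0 ± 7.41, a pair closer than its spread. Wisp1 was above Nov only in replicate 2 (91.1 against 16.9 per kb), and below it in replicates 1, 3 and 4. The other mouse gene of the family, Wisp3 (Ccn6), had 0 to 5 reads per library and was too low to be tested. A count of 0 allows up to 3 reads, which covers counting error only.

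**Figure D2:**
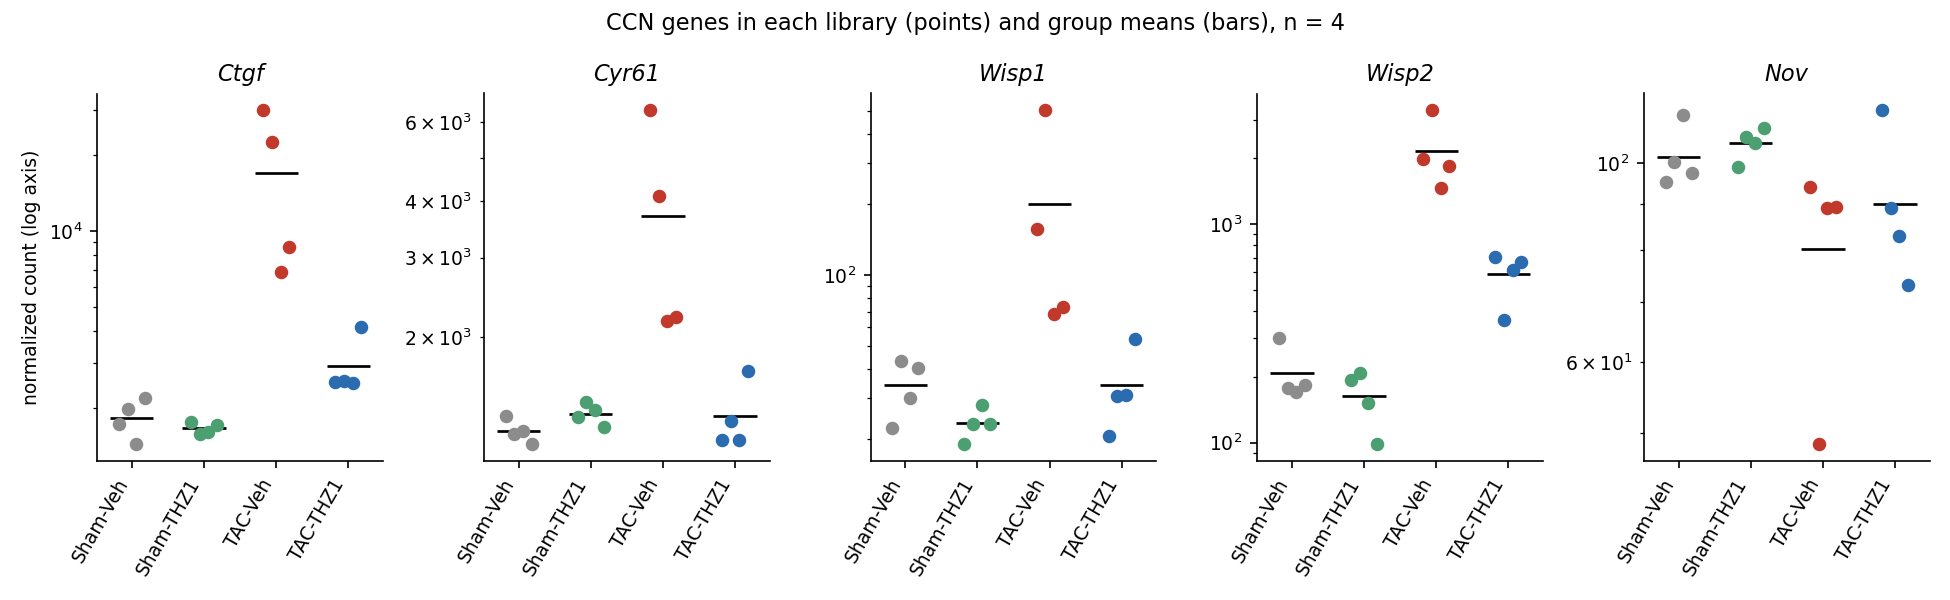
Normalized count on a log axis (each gene with its own range) for the 5 CCN genes, with 1 point per library and a bar for the mean of the 4 libraries of each group. The 4 TAC-Veh points lie above all Sham-Veh points for Ctgf, Cyr61, Wisp1 and Wisp2 and below them for Nov.

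How pressure overload changes the family was read from TAC-Veh against Sham-Veh. Ctgf, Cyr61, Wisp1 and Wisp2 rose and Nov did not pass the test. The rise was 10.1-fold for Wisp2, 7.81-fold for Ctgf, 4.20-fold for Wisp1 and 2.71-fold for Cyr61. Genes were called with limma at an adjusted p (Benjamini-Hochberg) below 0.05 over 13331 tested genes, all 5 members among them. The fit holds 1 spread per gene for all groups, although the members spread most in TAC-Veh. For Ctgf the SD on the log2 scale was 1.03 in TAC-Veh, 0.26 in Sham-Veh and 0.07 in Sham-THZ1. The members' SE and p for comparisons with TAC-Veh are therefore smaller than the spread of TAC-Veh itself would give. In this comparison 21.4% of all tested genes were called higher and 23.6% lower, against 4 and 0 of the 5 members. With the log2 fold change of at least 1 that the study's methods add, the same 4 members were called, against 4.64% of all genes higher. Without TAC-Veh replicates 1 and 2 Cyr61, at 0.83, was below that threshold.

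Ctgf, the family's fibrosis-associated member, had 1726, 1967, 1434 and 2184 normalized counts in the Sham-Veh libraries and 29946, 22367, 6875 and 8612 in the TAC-Veh libraries, in the order of replicates 1 to 4. The groups did not overlap, and TAC-Veh replicates 1 and 2 were far above replicates 3 and 4. In the limma fit the log2 fold change was 2.97 (SE 0.34, adjusted p 5.94e-06), and 2.09 without TAC-Veh replicates 1 and 2 (adjusted p 1.26e-06).

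Cyr61, an angiogenic member that is quickly induced by growth factors and stretch, had 1334, 1217, 1233 and 1155 normalized counts in Sham-Veh and 6379, 4111, 2165 and 2212 in TAC-Veh. All constricted hearts were higher, and the same 2 libraries were the highest. On the log2 scale the difference was 1.44 (SE 0.24, adjusted p 1.94e-04), and 0.83 without those libraries (adjusted p 5.19e-05).

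Wisp2, the short member, had 299, 177, 171 and 183 normalized counts in Sham-Veh and 1989, 3309.9, 1460.3 and 1831 in TAC-Veh. Here replicate 2 alone was well above the rest, and the lowest constricted heart was still several times the highest sham heart. The log2 fold change was 3.34 (SE 0.28, adjusted p 3.75e-07), and 3.01 without replicates 1 and 2 (adjusted p 3.28e-06), so it depended less on these libraries than that of Ctgf.

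Wisp1, which is made by activated fibroblasts, had 22.3, 43.3, 30.1 and 40.2 normalized counts in Sham-Veh and 158, 503, 68.4 and 73.3 in TAC-Veh. Its highest TAC-Veh library was 7.35 times its lowest, the widest spread of any member within a group. On the log2 scale the difference was 2.07 (SE 0.47, adjusted p 0.00193), and without TAC-Veh replicates 1 and 2 it was 1.08 (adjusted p 0.0162). Leaving out replicate 2 alone gave 1.46 (adjusted p 0.00253).

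Nov, which in cultured cells often opposes Ctgf, had 95.5, 100.3, 113 and 97.7 normalized counts in Sham-Veh and 94.1, 48.6, 89.2 and 89.4 in TAC-Veh. Every TAC-Veh library was below every Sham-Veh library, but 3 of them by little. In the limma fit the log2 fold change was -0.38 (95% interval -0.76 to -0.00035, adjusted p 0.0954) and did not pass the test. Without TAC-Veh replicate 2 it was -0.16 (adjusted p 0.366), and without replicates 1 and 2 it was -0.18 (adjusted p 0.384). All 5 members were without overlap between the groups, 4 upward and Nov downward, while 18.2% of all tested genes did not overlap upward and 19.1% downward.

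In TAC-Veh the SD of Ctgf was 65.5% of its mean, against 17.6% in Sham-Veh. For Cyr61 the SD was 53.6% of the mean in TAC-Veh against 6.04% in Sham-Veh, and for Wisp1 103% against 28.4%. Nov had 26.5% against 7.80%, and Wisp2 had 37.5% against 29.6%. For Nov and Wisp2 this order rested on TAC-Veh replicate 2, without which the SD was 3.03% and 15.4% of the mean, below Sham-Veh with all its libraries. The Sham-Veh spread of Wisp2 itself included replicate 1, at 299 normalized counts where the others had 171 to 183. It was not computed without that library, so no order of the spreads can be read for Wisp2. Leaving out any 1 TAC-Veh library kept Ctgf, Cyr61 and Wisp1 above Sham-Veh, with Ctgf at 53.3% to 84.8%, Cyr61 at 39.2% to 67.5% and Wisp1 at 50.3% (without replicate 2) to 116%.

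What the drug does to the family in loaded hearts was read from TAC-THZ1 against TAC-Veh. The same 4 members fell and Nov did not pass the test. Relative to TAC-Veh on the fitted scale, Ctgf was at 20.3%, Wisp1 at 23.2%, Wisp2 at 27.8% and Cyr61 at 39.5%. Of all tested genes 14.2% were called lower and 15.1% higher. Under the study's added fold threshold of 0.89 on the log2 scale 3.62% were lower, and all 4 members passed it. Without TAC-Veh replicates 1 and 2 Cyr61, at -0.73, did not reach that threshold. This comparison shares the TAC-Veh libraries with the preceding one, so its values are set beside the first and are not independent of them.

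Ctgf had 2526, 2556, 2496 and 4159 normalized counts in TAC-THZ1. Replicate 4 was above the other 3, which lay close together, and it was still below the lowest TAC-Veh library. The log2 fold change was -2.30 (SE 0.34, adjusted p 2.50e-04), and -1.43 when TAC-Veh replicates 1 and 2 were left out (adjusted p 2.34e-04).

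Cyr61 had 1183, 1298, 1179.9 and 1678 normalized counts in TAC-THZ1, again with replicate 4 as the highest. These levels were in the range of the sham hearts, except for replicate 4. In the limma fit the log2 fold change was -1.34 (SE 0.24, adjusted p 9.91e-04), and -0.73 without TAC-Veh replicates 1 and 2 (adjusted p 7.39e-04).

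Wisp1 had 20.7, 30.6, 30.9 and 53.4 normalized counts in TAC-THZ1, with replicate 4 once more the highest and none as high as a TAC-Veh library. On the log2 scale the difference was -2.11 (SE 0.47, adjusted p 0.00355), and -1.12 without TAC-Veh replicates 1 and 2 (adjusted p 0.0245). Without TAC-Veh replicate 2 alone it was -1.50 (adjusted p 0.00552).

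Wisp2 had 702, 364, 616 and 668 normalized counts in TAC-THZ1, with replicate 2 as the lowest. They lay between the sham and the TAC-Veh libraries with no overlap on either side. The log2 fold change was -1.84 (SE 0.28, adjusted p 2.59e-04), and -1.52 without TAC-Veh replicates 1 and 2 (adjusted p 0.00366).

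Nov had 115, 89.1, 83.0 and 73.2 normalized counts in TAC-THZ1, a range that covered the upper 3 TAC-Veh libraries. On the log2 scale the difference was 0.19 (95% interval -0.19 to 0.57, adjusted p 0.453), and without TAC-Veh replicates 1 and 2 it was -0.0082 (adjusted p 0.979). In all, 4 of 5 members did not overlap between TAC-THZ1 and TAC-Veh, all downward, against 10.5% of all tested genes.

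An effect of the drug without load was looked for between Sham-THZ1 and Sham-Veh. No member was called by limma, edgeR or DESeq2, and 0 members had an unadjusted limma p under 0.05. Of all genes 0.0225% were called higher and 0.045% lower, so few calls were made at all.
Ctgf had 1752, 1581, 1608 and 1703 normalized counts in Sham-THZ1, within the range of Sham-Veh, and a log2 fold change of -0.12 (95% interval -0.84 to 0.60, adjusted p 0.987). Cyr61 had 1329, 1436, 1378 and 1258, and a log2 fold change of 0.13 (interval -0.39 to 0.64, adjusted p 0.973). Wisp2 had 193, 208, 151 and 98.3, and a log2 fold change of -0.37 (interval -0.95 to 0.22, adjusted p 0.863). All these intervals include 0, and that of Wisp2 reaches a fall by 0.95. Wisp1 had 19.1, 23.3, 28.0 and 23.3, and a log2 fold change of -0.48 (interval -1.47 to 0.50, adjusted p 0.928). Nov had 99.0, 107, 106 and 109, and a log2 fold change of 0.052 (interval -0.33 to 0.43, adjusted p 0.988). The widest interval was that of Wisp1, which leaves room for a change of more than 2-fold. These intervals use a spread shared by all groups, so the constricted hearts widen them. For Wisp1 the SD on the log2 scale was 1.33 in TAC-Veh, against 0.42 in Sham-Veh and 0.22 in Sham-THZ1.

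Whether THZ1 acted differently in TAC and in sham hearts was tested as an interaction. It was called for Ctgf, Cyr61 and Wisp2, each lower, against 5.62% of all tested genes lower and 4.40% higher. The difference between the drug effects was -2.18 for Ctgf on the log2 scale (SE 0.48, adjusted p 0.0122), -1.47 for Cyr61 (SE 0.34, adjusted p 0.0163) and -1.48 for Wisp2 (SE 0.39, adjusted p 0.0268). For Wisp1 it was -1.62 (SE 0.66, 95% interval -3.02 to -0.23, adjusted p 0.124) and for Nov 0.14 (interval -0.40 to 0.67, adjusted p 0.777), neither of which passed. Without TAC-Veh replicates 1 and 2 the values were -1.31 for Ctgf (adjusted p 0.00584), -0.86 for Cyr61 (adjusted p 0.00346) and -1.15 for Wisp2 (adjusted p 0.0862), so the call for Wisp2 was lost. It was also lost when Sham-Veh replicate 2, 3 or 4, Sham-THZ1 replicate 1 or 2, TAC-Veh replicate 2 or TAC-THZ1 replicate 2 was left out alone (adjusted p 0.0516 to 0.0595), and Wisp1 was called when TAC-Veh replicate 3 was left out (adjusted p 0.0417).

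The response to constriction that was left under the drug is the difference between TAC-THZ1 and Sham-THZ1. Wisp2 alone was called, with a log2 fold change of 1.86 (SE 0.28, 95% interval 1.27 to 2.44, adjusted p 6.71e-04), against 11.4% of all genes higher. Its mean was 163 ± 49.3 normalized counts in Sham-THZ1 and 588 ± 153 in TAC-THZ1 (SD, n = 4). Ctgf, with 1661 ± 80.3 and 2934 ± 817, did not overlap between the groups either, but its log2 fold change of 0.79 (interval 0.064 to 1.51) had an adjusted p of 0.102. Ctgf and Wisp2 were thus 2 of 5 members without overlap, where 15.7% of all genes did not overlap upward. The call on Ctgf depended on the TAC-Veh libraries, which enter only through the shared spread: its adjusted p was 0.00112 without TAC-Veh replicates 1 and 2, 0.0348 and 0.0499 without replicate 1 or replicate 3 alone, and 0.00205 in a fit of the groups compared alone.
Cyr61, with 1350.4 ± 75.6 and 1335 ± 236 normalized counts, had a difference of -0.031 (interval -0.55 to 0.48, adjusted p 0.944). Wisp1 had a difference of 0.45 (interval -0.54 to 1.43, adjusted p 0.514), and Nov of -0.24 (interval -0.62 to 0.14, adjusted p 0.339).

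**Figure D3:**
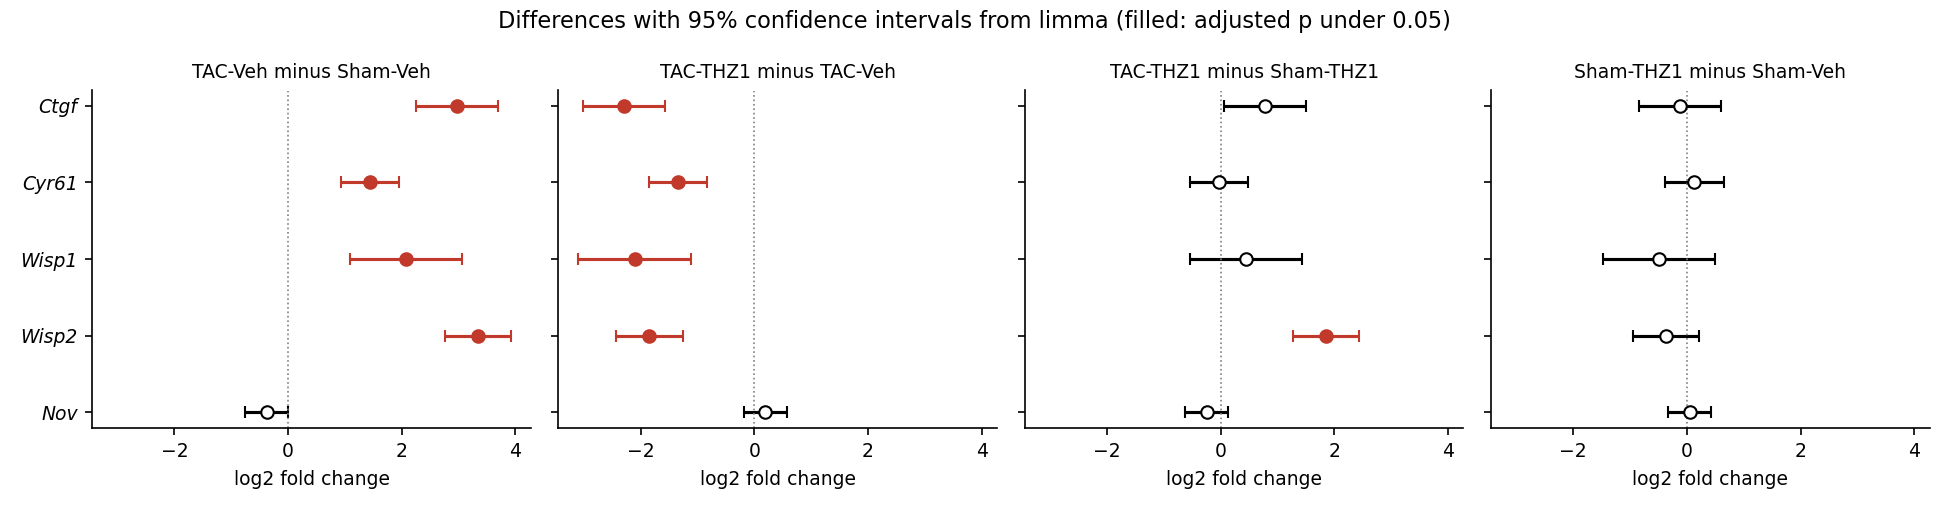
Log2 fold changes (points) with 95% confidence intervals (horizontal lines) from limma for 4 comparisons, filled red where the adjusted p was under 0.05. Ctgf, Cyr61, Wisp1 and Wisp2 lie to the right of 0 for constriction and to the left for THZ1 in TAC, and all sham intervals include 0.

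Ordered by group mean, Ctgf, Cyr61, Wisp1 and Wisp2 were each highest in TAC-Veh. Ctgf and Wisp2 then followed the order TAC-THZ1, Sham-Veh, Sham-THZ1, of which the sham pair did not differ beyond its spread. For Cyr61 and Wisp1 the 3 other groups overlapped, and no order among them can be read. Nov had its highest mean in Sham-THZ1 at 105 ± 4.48 and its lowest in TAC-Veh at 80.3 ± 21.3 normalized counts. The latter was pulled down by replicate 2, at 48.6. TAC-THZ1 overlapped the 3 other groups and the sham groups overlapped each other, so no order can be read for Nov either. No comparison was called for Nov, and Sham-Veh was not tested against TAC-THZ1 for any member.

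The makeup of the family was described as each member's share of the summed level per kb. The sum was 1492 ± 119 normalized counts per kb for Sham-Veh, 1458 ± 46.7 for Sham-THZ1, 9821 ± 5653 for TAC-Veh and 2179.6 ± 469.6 for TAC-THZ1 (SD, n = 4). In TAC-Veh it was 16268, 12838, 4631 and 5546, so replicates 1 and 2 held more than the other constricted hearts, while the TAC-THZ1 libraries lay between 1893 and 2880.4. Ctgf took 49.0% ± 5.59 of the sum for Sham-Veh, 45.8% ± 2.78 for Sham-THZ1, 66.5% ± 6.62 for TAC-Veh and 53.6% ± 3.29 for TAC-THZ1. Cyr61 took 41.0% ± 4.37, 45.6% ± 1.85, 19.5% ± 2.97 and 30.4% ± 2.34 in the same order. The shares of Ctgf and Cyr61 in TAC-Veh and TAC-THZ1 did not overlap, the first being higher and the second lower in TAC-Veh. Wisp2 took 7.21% ± 1.94, 5.76% ± 1.60, 13.3% ± 4.92 and 14.2% ± 3.81, and its share in the TAC groups overlapped. Nov took 2.40% ± 0.403 of the sum for Sham-Veh, 0.392% ± 0.265 for TAC-Veh and 1.50% ± 0.461 for TAC-THZ1, shares that follow the sum more than its own level. Wisp1 stayed under 1% of the sum in every library, with 0.710% as the highest. Shares of 1 sum depend on each other and were not tested.

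**Figure D4:**
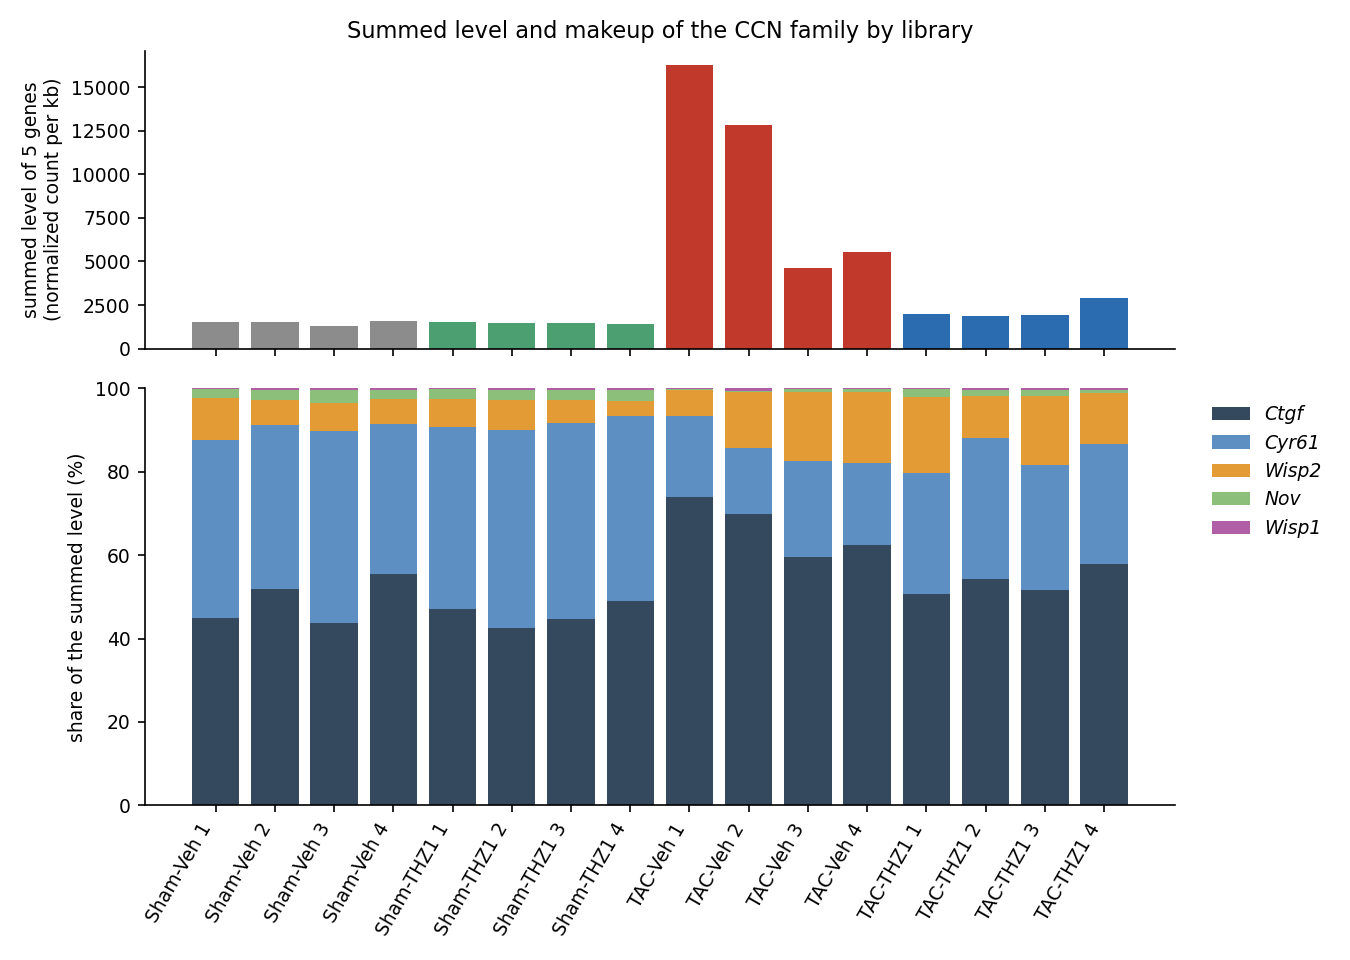
Upper bars give the summed level of the 5 genes in normalized counts per kb for each library, coloured by group, and lower bars the share of each gene in that sum in percent. TAC-Veh libraries hold 4631 to 16268 per kb and a Ctgf share of 59.6% to 73.9%, and the Cyr61 share is lowest in them.

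Across the 16 libraries the 4 members that rose with constriction went together on the log2 scale. Pearson's r was 0.949 between Ctgf and Cyr61, 0.910 between Ctgf and Wisp1 and 0.905 between Ctgf and Wisp2. These points share libraries and group differences, and after each group's mean was taken off, r was 0.919 for Ctgf and Cyr61, 0.745 for Ctgf and Wisp1 and 0.373 for Ctgf and Wisp2. The value for Ctgf and Cyr61 was carried by the TAC groups, where r within groups was 0.976 over 8 libraries, against -0.511 over the 8 sham libraries. Without TAC-Veh replicates 1 and 2 it was 0.550 over 14 libraries for Ctgf and Cyr61, 0.688 for Ctgf and Wisp1 and 0.147 for Ctgf and Wisp2. Nov had r between -0.797 and -0.538 with the others over all libraries, with -0.800 for Wisp1 within groups, a value in which TAC-Veh replicate 2 is both the highest Wisp1 and the lowest Nov library and which was -0.593 without TAC-Veh replicates 1 and 2.

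The tested genes whose pattern over the 16 libraries was most like that of Ctgf were Fstl3, a secreted binder of activin (r = 0.986), Cyb5r3, Anxa7, Igfbp7 and Mfap5, a protein of elastic microfibrils (r = 0.977). For Cyr61 they were Anxa3 (r = 0.988), Pi4k2b, Cyb5r3, Cyb561 and F2r, the thrombin receptor (r = 0.966). Cyb5r3 was thus on both lists. For Wisp2 they were Lrp8 (r = 0.987), Atp6v0a4, Ltbp2 and Cilp, both proteins of the matrix, and Xirp2, an actin-binding protein of striated muscle (r = 0.976). For Wisp1 they were Golt1b (r = 0.972), Ddah1, Glt25d1, which adds sugars to collagen, Megf10 and Stim2 (r = 0.939). For Nov the values were lower, from 0.885 for Myrip and 0.858 for Ppargc1a, a coactivator of mitochondrial genes, to 0.840 for Trpc4ap. Ranked by r, Cyr61 was number 93 for Ctgf and Ctgf number 23 for Cyr61, so no member was among the 5 nearest genes of another.

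Most myofibroblast and fibroblast markers rose with TAC and fell with THZ1 in TAC, as 4 of the members did, and markers of other cell types differed. In TAC-Veh the summed myofibroblast markers were 67819, 91419, 30078 and 35188 normalized counts in replicates 1 to 4, against 3602 to 4820.1 for Sham-Veh, 3836 to 4732 for Sham-THZ1 and 4489 to 11015 for TAC-THZ1. Replicates 1 and 2, the highest for Ctgf, Cyr61 and Wisp1, were also the highest for this sum. Of its 8 genes 7 rose with TAC, with Acta2 as the exception (log2 fold change -0.067, adjusted p 0.788), and 6 fell with THZ1 in TAC. Postn reached the highest level of the 8, with up to 65868 normalized counts in a library. In TAC-THZ1 the order was different, since replicate 4, the highest for Ctgf, Cyr61 and Wisp1, had 8996 and replicate 3 the highest sum. Fibroblast markers summed to 57378 to 64186 for Sham-Veh, 59689.7 to 63862 for Sham-THZ1, 86484 to 117814 for TAC-Veh and 61038 to 81868 for TAC-THZ1. Of these markers 5 of 8 were higher for TAC and 5 of 8 lower for THZ1 in TAC. Pdgfra, Tcf21 and Gsn were called in neither comparison. Macrophage markers had 5 of 8 higher with TAC and 0 of 8 called for THZ1 in TAC, and cardiomyocyte markers 4 of 8 lower with TAC and 5 of 8 higher with THZ1. Endothelial markers had 2 of 8 higher and 2 lower with TAC, about the share of all tested genes (21.4% higher and 23.6% lower), and 1 higher and 3 lower with THZ1 in TAC, where all genes had 15.1% and 14.2%. Smooth muscle and pericyte markers had 0 of 8 higher and 5 lower with TAC and 3 higher and 1 lower with THZ1 in TAC, and the 4 tested epicardial markers had 2 higher with TAC and 0 called with THZ1 in TAC. Adipocyte markers summed to at most 42.5 normalized counts in any library, and Lep was at 0 in 12 libraries. The part of these cell types in the CCN changes was not tested.

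The regulators and partners of the family were followed in 5 lists, whose changes are given as log2 fold changes. The Hippo pathway list holds the kinases, scaffolds and TEAD factors upstream of YAP and TAZ targets, and 16 of its 17 genes were tested. Of these 4 rose and 1 fell with TAC, and 0 rose and 5 fell with THZ1 in TAC, against 21.4% and 23.6%, and 15.1% and 14.2%, of all genes. The median log2 fold change was 0.091 with TAC and -0.20 with THZ1, where the medians of all tested genes were -0.0030 and 0.015. Wwtr1, which encodes TAZ, had 1964 ± 67.3 normalized counts with Sham-Veh, 2602 ± 293 with TAC-Veh and 1766 ± 65.5 with TAC-THZ1 (SD, n = 4), log2 fold changes of 0.40 (adjusted p 3.40e-04) and -0.55 (adjusted p 1.03e-04). On the log2 scale Amot, a scaffold that binds YAP, rose by 0.91 (adjusted p 1.29e-05) and fell by 0.98 (adjusted p 5.48e-05). Tead1, a DNA-binding partner of YAP, had -0.037 with TAC (adjusted p 0.785) and fell with THZ1, at -0.35 (adjusted p 0.0129), and Tead3 fell with TAC, at -0.25 (adjusted p 0.00772). Mob1a and Mob1b, adaptors of the Lats kinases, rose by 0.29 and 0.20 on that scale with TAC (adjusted p 0.0206 and 0.0334).

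The YAP and TAZ signature list holds target genes other than the CCN members, and 19 of its 20 were tested. With TAC 10 rose and 6 fell, with a median log2 fold change of 0.62, and with THZ1 in TAC 2 rose and 6 fell, with a median of -0.45. These were 52.6% higher and 31.6% lower with TAC, and 10.5% and 31.6% with THZ1. All tested genes had 21.4% and 23.6% with TAC, and 15.1% and 14.2% with THZ1 in TAC. Ankrd1, a cardiac stress gene that the study also names, rose by 2.30 on the log2 scale with TAC (adjusted p 2.82e-07) and fell by 1.07 with THZ1 (adjusted p 7.06e-04). Tgfb2, a TGF-beta ligand, rose by 1.94 and fell by 1.35, and Ccdc80, a matrix protein, rose by 1.38 and fell by 1.01. Arhgef17 went the other way with TAC, at -0.90 (adjusted p 8.83e-05), and had 0.32 with THZ1 (adjusted p 0.0907). The members Ctgf and Cyr61 therefore moved with part of this list and not with all of it.

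The list of TGF-beta and SMAD targets moved more evenly. Of 10 genes 9 rose and 0 fell with TAC, and 0 rose and 7 fell with THZ1, with medians of 0.85 and -0.66. The shares of all tested genes were 21.4% higher and 23.6% lower with TAC, and 15.1% and 14.2% with THZ1 in TAC. Nox4, an oxidase, had 39.8 ± 7.78 normalized counts with Sham-Veh, 627 ± 319.6 with TAC-Veh and 99.6 ± 62.9 with TAC-THZ1, log2 fold changes of 3.83 (adjusted p 1.21e-06) and -2.71 (adjusted p 1.42e-04). On the log2 scale Pmepa1, which restrains TGF-beta signaling, rose by 1.24 and fell by 1.01, Tgif1, a SMAD corepressor, rose by 1.37 and fell by 0.67, and Lmcd1 rose by 0.72 and fell by 0.59. D18Ertd653e, now called Ldlrad4, rose by 0.97 and fell by 1.13.

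**Figure D5:**
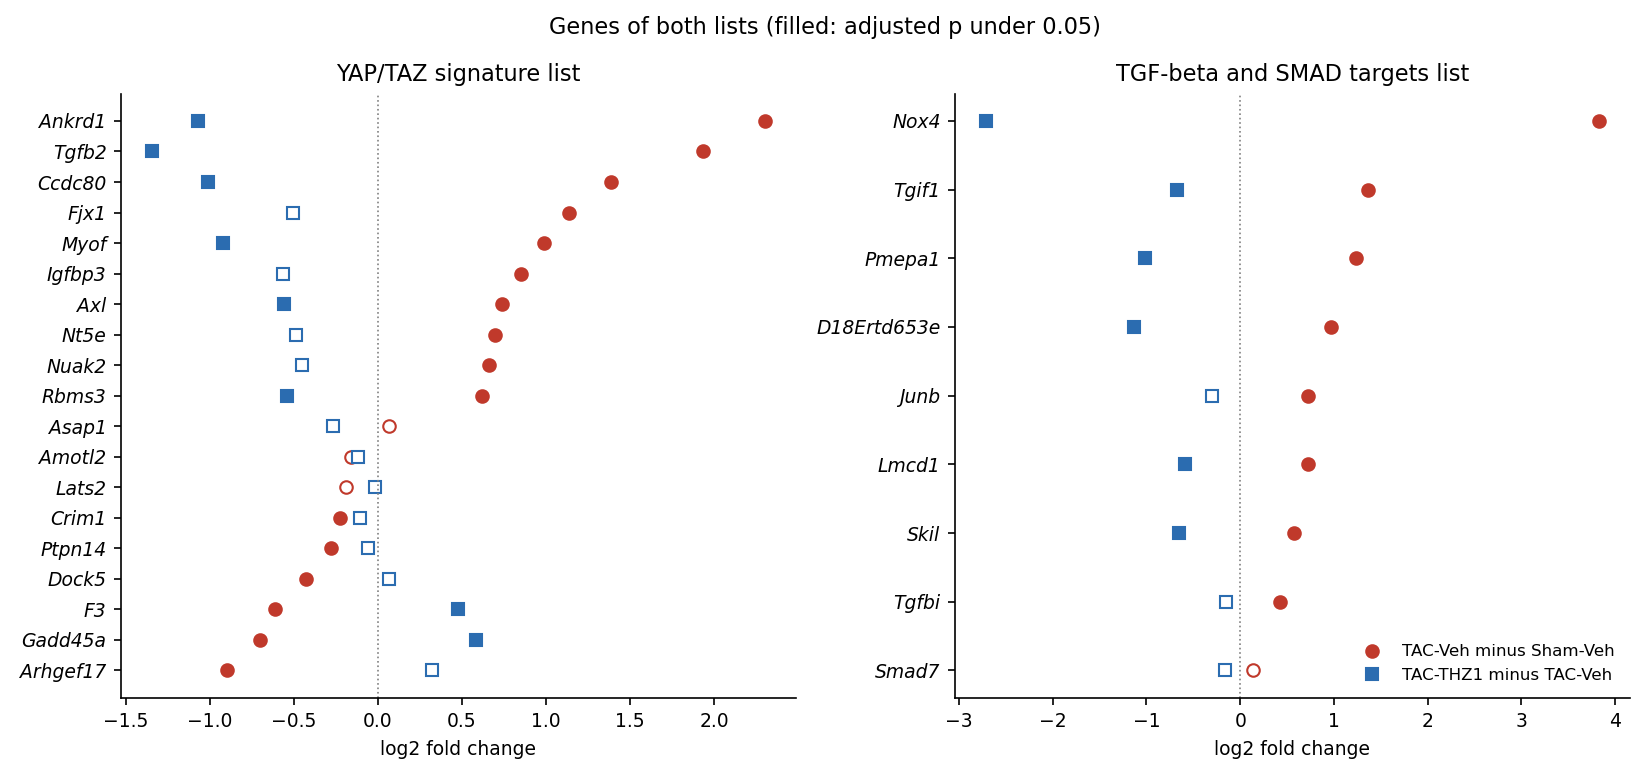
Log2 fold changes of the 19 tested genes of the YAP/TAZ signature list (left) and of 9 genes of the TGF-beta and SMAD target list (right), with red circles for TAC-Veh minus Sham-Veh and blue squares for TAC-THZ1 minus TAC-Veh, filled where the adjusted p was under 0.05. Circles lie on both sides of 0 in the left panel, with 10 genes called higher and 6 lower, and to the right of 0 in the right panel, with 8 of the genes drawn called higher and 0 lower.

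Receptors were followed through 15 genes, mostly integrins. With TAC 7 rose and 2 fell, with a median log2 fold change of 0.36, and with THZ1 in TAC 0 rose and 6 fell, with a median of -0.47. Beside this, 21.4% of all tested genes were higher and 23.6% lower with TAC, and 15.1% and 14.2% with THZ1 in TAC. Itgb5, a partner of the alpha v integrin, had 2387 ± 92.7 normalized counts with Sham-Veh, 4708 ± 936 with TAC-Veh and 2728 ± 369 with TAC-THZ1 (adjusted p 8.39e-06 and 2.50e-04). Itga5 of the fibronectin receptor rose by 0.58 and fell by 0.58 on the log2 scale. Itgb1 rose by 0.28 with TAC and fell by 0.56 with THZ1, below its sham level, with 11035 ± 181 normalized counts in Sham-Veh and 9113 ± 345 in TAC-THZ1. Itgav had 0.15 with TAC (adjusted p 0.237) and fell by 0.48 with THZ1 (adjusted p 0.00265). Notch1, a receptor that Nov binds, was lower with TAC at -0.49 (adjusted p 0.00622) and had -0.026 with THZ1 (adjusted p 0.901). Fgfr2 rose by 1.21 with TAC (adjusted p 0.00124) from 6.82 ± 1.62 to 17.5 ± 5.91 normalized counts, a low level.

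Growth factors that CCN proteins hold split both ways. Of 8 genes 3 rose and 3 fell with TAC, and 1 rose and 3 fell with THZ1, with medians of -0.31 and -0.22. Among all tested genes 21.4% were higher and 23.6% lower with TAC, and 15.1% and 14.2% with THZ1 in TAC. Igf1 rose by 1.34 on the log2 scale with TAC (adjusted p 3.82e-05) and fell by 1.11 with THZ1 (adjusted p 6.39e-04), Bmp4 rose by 0.90 and fell by 0.42, and Tgfb1 rose by 0.42 and fell by 0.40. Bmp7 had the mirrored pattern, with means of 38.7 ± 10.5 normalized counts for Sham-Veh, 14.6 ± 4.05 for TAC-Veh and 35.2 ± 11.6 for TAC-THZ1, log2 fold changes of -1.35 (adjusted p 6.02e-04) and 1.20 (adjusted p 0.00327). Igf2 was lower with TAC at -0.95 (adjusted p 3.12e-04) and had 0.43 with THZ1 (adjusted p 0.0658).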

How the data were processed

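The deposited table held normalized counts (a signal in units of reads) per protein-coding gene for 16 ventricle libraries made with a stranded mRNA kit. Per the study's methods and the submitters' processing notes, the authors aligned reads with TopHat2 2.1.1 to mm9, counted them by strand with HTSeq per GENCODE gene, and divided each library by a DESeq2 size factor from 1 run over all mouse libraries. Within a library 100% of values were multiples of what 1 read is worth (tolerance 0.001 reads), which gave back the reads and depths. Depth limits precision through counting error, and intervals here also hold the spread between mice.

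The main test was limma 3.58.1 (R 4.3.3) with all 16 libraries in 1 fit, a mean for each group and a variance trend in eBayes, on log2(normalized count + 1), and Benjamini-Hochberg adjustment over the 13331 genes with at least 10 normalized counts in at least 4 libraries. Fold changes are on that scale, which understates low genes. Groups came from the sample titles. Replicates were separate mice, and pairs of them differed by more than counting noise (chi-square over its degrees of freedom 3.06 to 98.3). The labels gave no batch. Per kb levels used the union of exons. Promoter letters came from RefSeq. Amino acid sequences and other members' promoters were not used here.

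The members and lists were chosen with earlier results of these data known. Named were the 5 members in every comparison, from each list the up to 4 called genes with the smallest adjusted p for TAC and for THZ1 in TAC (a few of their values are given by range or left out), the 5 genes most correlated with each member, and Wisp3. One gene of the lists stays in the counts but is not reported here. Marker genes named outside this rule, such as Acta2, were chosen after their values were seen. Alternatives were the pseudocount (0.5, 5), no filter and a minimum mean of 50, upper-quartile scaling, the compared groups alone, robust eBayes, array weights, the replicate block, the study's fold thresholds, each library left out, and edgeR 4.0.16 (quasi-likelihood) and DESeq2 1.42.0 on the recovered reads. Leaving out TAC-Veh replicates 1 and 2 together, and subsets of libraries for correlations and spread, were chosen later, with the data in view. Scripts were tested on simulated data. Figures used Python 3.11.15 and Matplotlib 3.10.9.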

Additional observations from a re-analysis of the deposited data

Results flagged for a closer look

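Within groups of 4 libraries, 3 of 20 sets of member values held a library far from the others by Dixon's ratio at its 95% limit, where chance gives about 1 in 20. Ctgf in TAC-THZ1 replicate 4 was at 4159 normalized counts, and the nearest of the other 3 at 2556. Nov in TAC-Veh replicate 2 was at 48.6, with the nearest at 89.2. Wisp2 in Sham-Veh replicate 1 was at 299, with the nearest at 183. The wide spread of Ctgf, Cyr61 and Wisp1 in TAC-Veh did not meet this limit, since the libraries there fell 2 and 2 or in steps. By limma's interaction test, THZ1 acted differently under TAC and sham surgery on Ctgf (-2.18 on the log2 scale, adjusted p 0.0122), Cyr61 (-1.47, adjusted p 0.0163) and Wisp2 (-1.48, adjusted p 0.0268).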

How the results depend on the processing

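The 4 calls for TAC and the 4 for THZ1 in TAC were kept under all 28 alternative fits of each, and the 0 calls in sham hearts were also kept. The log2 fold change of Ctgf ranged from 2.60 to 3.31 for TAC and from -2.65 to -1.94 for THZ1 in TAC when 1 library was left out. Members called in TAC-THZ1 against Sham-THZ1 went from 1 to 2, with Ctgf added, in the compared groups alone (2), with array weights (2) and without TAC-Veh replicates 1 and 2 (2), and ranged from 1 to 2 over fits that left out 1 library, with 2 when TAC-Veh replicate 1 or replicate 3 was left out. The interaction of Wisp2 lost its call in 7 of 16 such fits (adjusted p 0.0516 to 0.0595, without Sham-Veh replicate 2, 3 or 4, Sham-THZ1 replicate 1 or 2, TAC-Veh replicate 2 or TAC-THZ1 replicate 2) and without TAC-Veh replicates 1 and 2 together (adjusted p 0.0862). That of Wisp1 was called when TAC-Veh replicate 3 was left out (adjusted p 0.0417). Sign changes were limited to values near 0. For Nov, THZ1 in TAC ranged from -0.033 to 0.28 and the interaction from -0.085 to 0.23 when 1 library was left out, both negative without TAC-Veh replicate 2, and were -0.0082 and -0.061 without TAC-Veh replicates 1 and 2 together. For Cyr61, TAC-THZ1 against Sham-THZ1 was 0.0035 with upper-quartile scaling, 0.038 with array weights and -0.15 to 0.024 when 1 library was left out. The cause was not tested. The fit of the compared groups alone was not run for the interaction, which uses all groups. Replicate numbers in the titles showed no pairing of the mice by the correlation of deviations from group means. It was -0.431 to 0.164 over 24 pairs of the same number and -0.231 to 0.309 over 72 pairs of different numbers. A shared batch was not tested. With the replicate block, 4, 4, 0, 1 and 3 members were called for TAC, THZ1 in TAC, THZ1 in sham, TAC-THZ1 against Sham-THZ1 and the interaction, and the list counts were within 1.5 times theirs. Wisp1 and Nov, with as few as 16 and 68 reads in a library, had the least depth.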
